A study of Mus musculus with 7 samples.

Results

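4 microRNAs (miRNAs) encoded within the Hox gene clusters, mmu-miR-10a, mmu-miR-10b, mmu-miR-196a and mmu-miR-196b, were examined in mouse kidney. They were taken by name among the non-control spots of a 1-colour Agilent miRNA array, and are 4 of the 696 miRNAs that the array measures. Total RNA came from kidneys of male C57BL/6 mice aged 9 to 12 weeks, collected at day 28 after surgery, and was labelled with the dye Cy3. The surgery was either unilateral ureteral obstruction (UUO), in which the left ureter is tied so that the kidney becomes fibrotic, or a sham operation in which the ureter was exposed without being tied. 7 arrays were analysed, 3 whose group label is treated (replicates 1, 3 and 4) and 4 whose group label is non-treated (replicates 1 to 4). The design text puts S numbers with the treated mice and C numbers with the non-treated mice, but neither it nor the group labels say which set was obstructed, so all groups below are named by label. Nothing in the labels states that each array came from its own animal, and p-values measure the spread between these arrays.

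Hox genes give cells their position along the body axis, and the miRNAs that lie among them are transcribed in the same domains. The miR-10 miRNAs lie near the Hox genes of group 4 and the miR-196 miRNAs near those of group 9, and both families repress Hox transcripts, miR-196 by near-perfect pairing that leads to cleavage of Hoxb8 mRNA. The kidney arises from intermediate mesoderm of the posterior trunk, and its cells keep a Hox code in the adult.

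Sequences of the mature strands are shown because each pair differs by a single base, which bears on what an array probe can tell apart. They are from RefSeq, with capitals for the seed (bases 2 to 8 from the 5′ end), the stretch that pairs with target mRNAs. The array's name for each member was matched to the RefSeq strand from the 5′ arm of its hairpin.
miR-10a: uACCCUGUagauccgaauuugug
miR-10b: uACCCUGUagaaccgaauuugug
miR-196a: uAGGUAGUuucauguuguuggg
miR-196b: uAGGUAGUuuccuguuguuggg

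Both miR-10 strands share the seed ACCCUGU, and they differ by the substitution U12A, counted from 1 at the 5′ end with the base of miR-10a first. Both miR-196 strands share the seed AGGUAGU and differ by A12C, with the base of miR-196a first. Among 1679 mature mouse miRNAs of the RefSeq table, each of these seeds was the seed of 2, the members themselves. The letters ACCCUGU were found anywhere in 5 mature miRNAs (0.298%), and AGGUAGU in 13 (0.774%). In 9 of these 13 the letters AGGUAGU stood at bases 3 to 9, 1 place later than in miR-196, and these 9 were 7 let-7 miRNAs, miR-98 and miR-1961. The spots carry no probe sequence in the files used here, so whether a probe separates miR-10a from miR-10b, or miR-196a from miR-196b, was not tested.

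In GRCm38.p6, miR-10a lies at chr11:96317186-96317208 on the plus strand, within the annotated span of Hoxb3 and between Hoxb5 and Hoxb4. miR-10b lies at chr2:74726074-74726096 on the plus strand, within the spans of Hoxd3 and Hoxd4. miR-196a is encoded at 2 places, chr11:96265187-96265208 between Hoxb13 and Hoxb9, and chr15:102973365-102973386 between Hoxc10 and Hoxc9, both on the plus strand, and its signal is the sum of both. miR-196b lies at chr6:52230129-52230150 on the minus strand, between Hoxa9 and Hoxa10. The 4 members thus come from all 4 Hox clusters.

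All 4 miRNAs were detected on all 7 arrays by the scanner software's own call, in a tissue whose general miRNA signal differed between the labels. The 186 miRNAs detected on every array had a mean log2 signal of 6.65 to 7.52 on arrays labelled non-treated and of 5.79 to 6.42 on arrays labelled treated, and from 232 to 282 against 193 to 214 miRNAs were detected. The synthetic spike-in controls differed less, with mean log2 signals of 10.20 to 10.67 and 10.05 to 10.58. Arrays of a group correlated at 0.990 or more, and arrays of different groups at 0.935 or less, over the 236 miRNAs that were tested.

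Before any scaling, the signal of miR-10a was 1509, 1691, 1047 and 1551 intensity units on non-treated replicates 1 to 4, and 627, 854 and 470 on treated replicates 1, 3 and 4. That of miR-10b was 912, 1142, 682 and 1027 on the non-treated arrays and 418, 569 and 348 on the treated arrays. In both, every array labelled treated was below every array labelled non-treated, and non-treated replicate 3 was the lowest of its group. miR-196a, which has been studied as a silencer of Hoxb8 in limb and trunk, read 544, 551, 349 and 525 on the non-treated arrays against 207, 262 and 180 on the treated arrays. miR-196b, encoded beside Hoxa9, read 179, 206, 122 and 174 against 66.0, 94.4 and 57.6. The miR-196 pair showed the same order of arrays within the treated group as the miR-10 pair, with replicate 3 highest and replicate 4 lowest.

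Signals were then scaled so that the 186 miRNAs detected on all arrays had the same mean log2 signal on each. This scaling sets a member against the rest of the measured miRNAs, and all changes below are treated minus non-treated by label. If the label treated stands for obstruction, the signs here run opposite to those the study gives for obstructed over sham kidneys, and the labels do not settle which holds. After scaling, none of the 4 members (0 of 4) passed the threshold, a limma Benjamini-Hochberg adjusted p below 0.01, while 129 of 236 miRNAs tested (54.7%) passed, 56 higher and 73 lower.

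miR-10a had scaled log2 signals of 9.91, 9.95, 10.13 and 9.94 on the non-treated arrays and 10.00, 10.06 and 9.84 on the treated arrays. Treated replicate 4 was just below the lowest non-treated array, and the other 2 treated arrays fell within the non-treated range. Its means were 9.98 ± 0.098 (SD, n = 4) and 9.96 ± 0.12 (SD, n = 3), a log2 change of -0.019 with SE 0.077 and a 95% interval of -0.21 to 0.17 (limma adjusted p = 0.862, exact permutation p = 0.857).

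miR-10b, the member of the Hoxd cluster and a repressor of Hoxd10, had scaled log2 signals of 9.18, 9.39, 9.51 and 9.35 against 9.41, 9.47 and 9.40. The 3 treated arrays fell inside the range of the non-treated arrays, which was set by replicate 1 at the bottom and replicate 3 at the top. Its means were 9.36 ± 0.13 (SD, n = 4) and 9.43 ± 0.040 (SD, n = 3), a log2 change of 0.071 with SE 0.078 and an interval of -0.12 to 0.26 (limma adjusted p = 0.464, exact permutation p = 0.457).

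miR-196a had scaled log2 signals of 8.44, 8.33, 8.54 and 8.38 against 8.39, 8.36 and 8.45. Here too each treated array fell within the non-treated range. Its means were 8.42 ± 0.091 (SD, n = 4) and 8.40 ± 0.047 (SD, n = 3), a log2 change of -0.024 with SE 0.059 and an interval of -0.17 to 0.12 (limma adjusted p = 0.753, exact permutation p = 0.800).

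miR-196b had scaled log2 signals of 6.83, 6.91, 7.03 and 6.78 against 6.75, 6.88 and 6.81. 1 treated array, replicate 1, was just below the lowest non-treated array and the other 2 were among them. Its means were 6.89 ± 0.11 (SD, n = 4) and 6.81 ± 0.069 (SD, n = 3), a log2 change of -0.078 with SE 0.069 and an interval of -0.24 to 0.089 (limma adjusted p = 0.362, exact permutation p = 0.343). With 4 arrays against 3 there are 35 arrangements, and the smallest 2-sided exact p they allow is 0.0571. In this scaling the intervals of the 4 members together run from 0.844-fold to 1.20-fold, which leaves room for a change of either sign within those bounds. Under other references, described below, the intervals went beyond them.

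**Figure D1:**
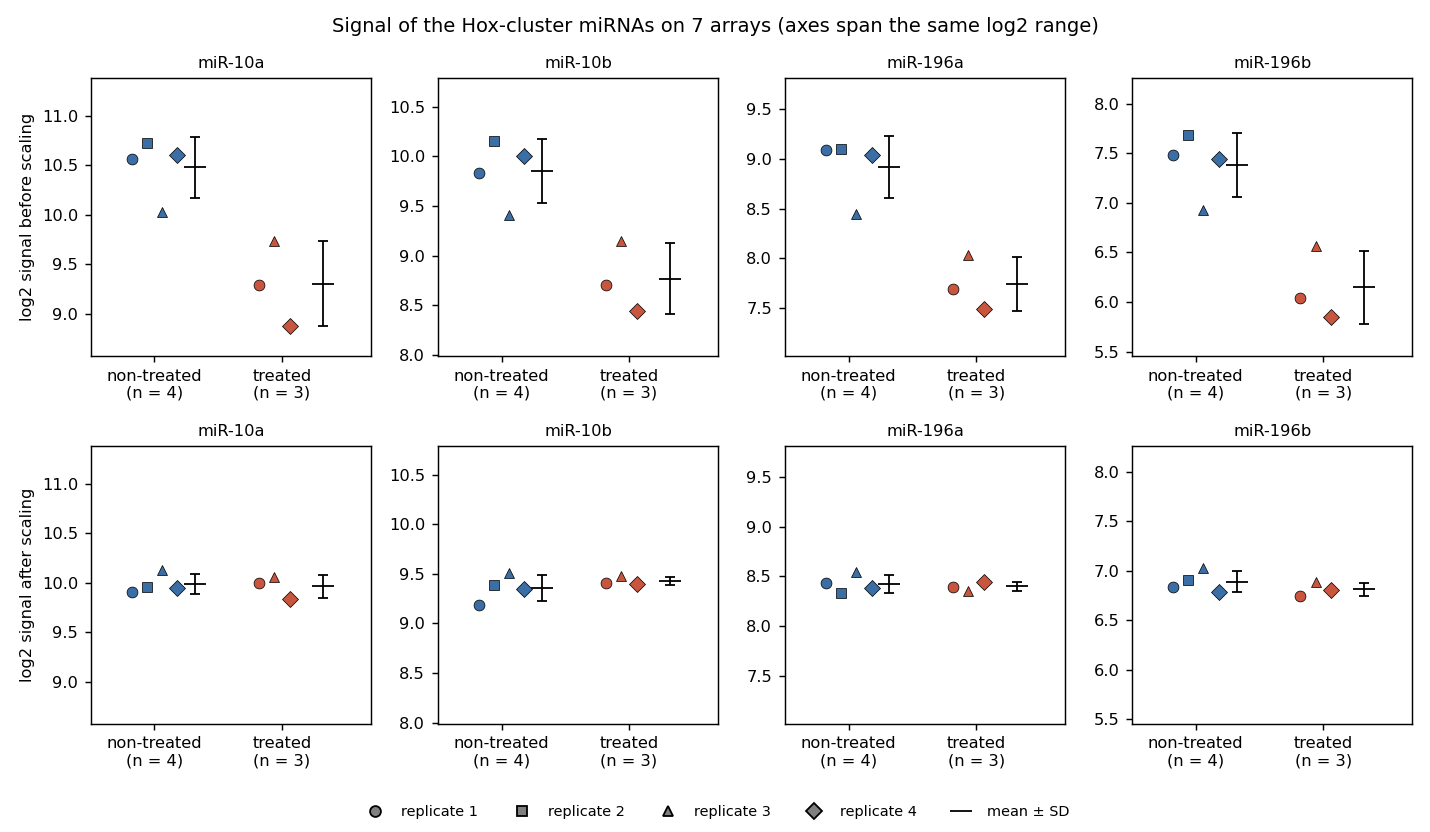
Signal of miR-10a, miR-10b, miR-196a and miR-196b on each of 7 arrays, as log2 intensity before scaling (top row) and after scaling to the 186 miRNAs detected on all arrays (bottom row). Each point is 1 array, its shape gives the replicate number, and the bars beside the points are the mean ± SD of 4 arrays labelled non-treated and 3 labelled treated. Before scaling all treated arrays are below all non-treated arrays, and after scaling the groups overlap in each miRNA.

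The answer to whether the Hox-cluster miRNAs differ between the labels therefore turned on the reference they were set against. With no scaling between arrays, the log2 changes were -1.18 for miR-10a, -1.08 for miR-10b, -1.18 for miR-196a and -1.23 for miR-196b, and 4 of 4 passed the threshold as lower on arrays labelled treated. So did 68.6% of all miRNAs tested, and the median change over all 236 was -1.20. With scaling to the spike-in controls, which follow labelling and hybridization but not the RNA content of the tissue, the 4 changes were -0.97, -0.88, -0.98 and -1.03, again with 4 of 4 passing, beside 70.3% of all miRNAs and a median of -1.005.

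With all 696 miRNAs averaged on the log2 scale as the reference, as the study's methods state a normalization to the array mean, the changes were -0.53, -0.44, -0.53 and -0.59. 3 of 4 members passed as lower, all but miR-10b (limma adjusted p = 0.0161), beside 51.3% of all miRNAs and a median of -0.56. With the reference at the 75th percentile of the miRNAs detected on all arrays, the changes were -0.27, -0.18, -0.27 and -0.33 and the median was -0.30. No member passed, with miR-196b close to the threshold (limma adjusted p = 0.0101), and the 95% intervals of miR-10a, miR-196a and miR-196b lay below 0. With the reference at the 75th percentile over all miRNAs, the changes were 0.23, 0.32, 0.22 and 0.17, the median was 0.092 and no member passed. The split of all calls moved with these references, from 56 higher and 73 lower in the main scaling to 36 and 121 with the mean of all miRNAs. It was 50 and 95 with the 75th percentile of detected miRNAs, and 73 and 46 with that of all miRNAs. With the spike-in controls it was 18 and 166, and without scaling 7 and 162.

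The members were also set against the median miRNA. In the main scaling, the member's change minus the median change was 0.042 for miR-10a, 0.13 for miR-10b, 0.037 for miR-196a and -0.017 for miR-196b. A reference that shifts all miRNAs of an array alike leaves this difference as it is except through the floor on dim signals, so these references are not separate evidence on it. The difference still moved with the 75th percentile over all miRNAs, to 0.14, 0.23, 0.13 and 0.078, where the sign turned for miR-196b. Quantile normalization, which does not shift all miRNAs alike, gave -0.18, -0.11, -0.091 and 0.0071, with the sign turned for all 4. In bulk kidney RNA, fewer cells that carry a miRNA and less of it per cell cannot be told apart.

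**Figure D2:**
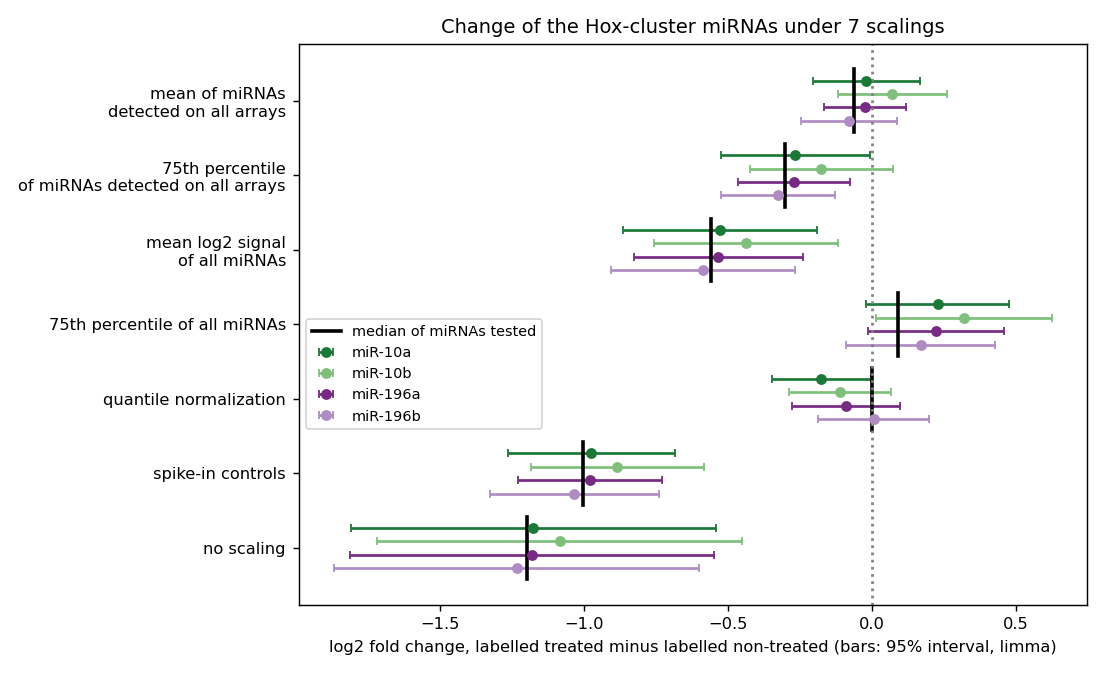
Log2 fold change of the 4 Hox-cluster miRNAs, arrays labelled treated (n = 3) minus labelled non-treated (n = 4), under 7 scalings. Points are the limma estimates with 95% intervals, the black line of each row is the median change of the 236 miRNAs tested, and the dotted line marks 0. The median lies between -1.20 and 0.092, and the members shift with it, since all but quantile normalization move every miRNA of an array alike.

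How steady the members were in the main scaling was described against the 186 miRNAs detected on all arrays. The SD within groups, pooled over both, was 0.11 for miR-10a, 0.11 for miR-10b, 0.077 for miR-196a and 0.093 for miR-196b on the log2 scale. From low to high these SDs ranked 61, 64, 21 and 40 of 186, where the median was 0.13 and the range 0.028 to 0.57. The sizes of their changes between labels ranked 8, 21, 10 and 23 of 186 from the smallest, where the median size was 0.57 and the largest 3.24. For 4 of 4 members the change was smaller than the member's own SD within groups, which held for 33 of the 186 (17.7%). 14 of the 186, the members among them, had both a change no larger than 0.078 and an SD no larger than 0.11, the limits that the members themselves set. These ranks are descriptions and hold for the main scaling, which sets these same 186 miRNAs to a common mean. Against the spike-in controls the members' changes ran from -0.88 for miR-10b to -1.03 for miR-196b.

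**Figure D3:**
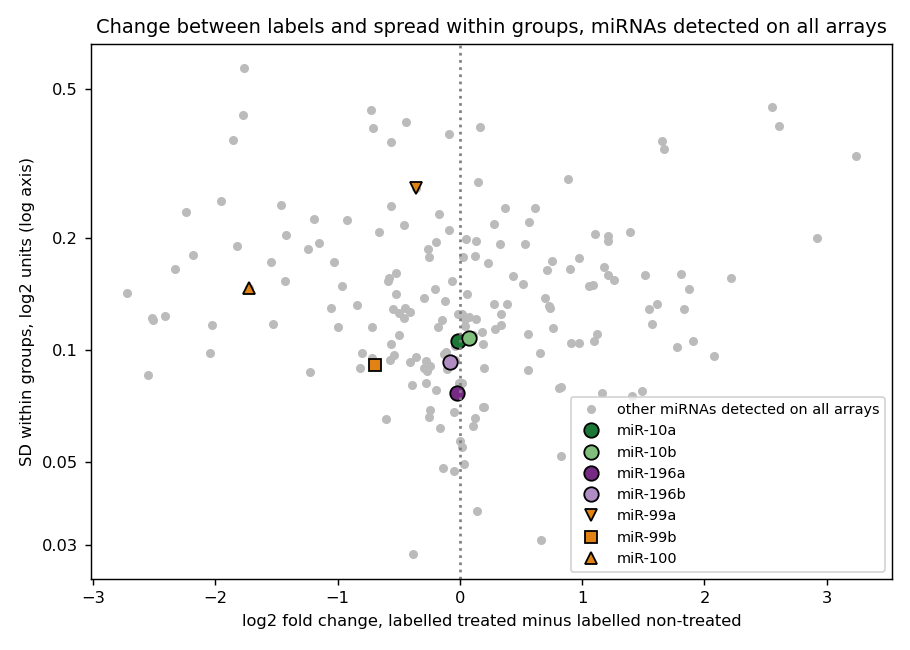
Log2 change between labels (horizontal axis, treated minus non-treated) and SD within groups pooled over 7 arrays (vertical axis, log scale, log2 units) of 186 miRNAs detected on all arrays. Filled circles in colour are the Hox-cluster miRNAs, orange symbols miR-99a, miR-99b and miR-100, and grey points the others. In the main scaling, shown here, the Hox-cluster miRNAs sit near 0 with SDs of 0.077 to 0.11, and miR-100 sits at -1.72.

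A ratio of 2 miRNAs within an array does not depend on the scaling between arrays, so the balance within and between the pairs was compared in this way. The log2 ratio of miR-10a to miR-10b was 0.73, 0.57, 0.62 and 0.60 on the non-treated arrays and 0.59, 0.59 and 0.43 on the treated arrays. The groups overlapped, and the difference was -0.091 with SE 0.059 (exact permutation p = 0.229, adjusted over 3 ratios 0.343). The ratio carries the probes' own brightness, so only its difference between labels was read.

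The log2 ratio of miR-196a to miR-196b was 1.60, 1.42, 1.52 and 1.59 against 1.65, 1.47 and 1.64. It differed by 0.054 with SE 0.069 (exact permutation p = 0.457, adjusted 0.457). The ratio of the miR-10 pair to the miR-196 pair was 1.91, 2.05, 2.03 and 2.06 against 2.13, 2.15 and 1.99, a difference of 0.077 with SE 0.059 (exact permutation p = 0.229, adjusted 0.343). In all 3 ratios 1 or more treated arrays fell among the non-treated ones, and no difference passed the threshold of an adjusted p below 0.05, which 35 arrangements cannot reach.

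miR-99a, miR-99b and miR-100, which belong to the same ancient family as miR-10 but have a seed that differs from ACCCUGU, lie outside the Hox clusters and gave a contrast. They are shown with the seed in capitals, to be read beside miR-10a above.
miR-99a: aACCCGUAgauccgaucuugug
miR-99b: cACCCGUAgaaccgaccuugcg
miR-100: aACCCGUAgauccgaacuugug

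miR-10a and miR-100 share an unbroken run of 11 bases, and miR-10a and miR-99a one of 10. The longest run was 5 bases for miR-10a and miR-99b, and also for miR-10b and miR-100. Despite its likeness to miR-10a, miR-100 read 7.49, 7.27, 7.09 and 7.44 scaled log2 units on the non-treated arrays against 5.66, 5.59 and 5.55 on the treated arrays. The groups did not overlap, and miR-100 was lower on arrays labelled treated by a log2 change of -1.72 with SE 0.10 (limma adjusted p = 1.55e-05). miR-99b was lower by -0.70 with SE 0.068 (limma adjusted p = 0.000146), and miR-99a had a change of -0.36 with SE 0.19 that did not pass (limma adjusted p = 0.140).

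The miR-10 pair was set against each of these within the array, ratios that were added after their values had been seen. The log2 ratio of the miR-10 pair to miR-100 was 2.05, 2.40, 2.73 and 2.21 on the non-treated arrays and 4.04, 4.18 and 4.07 on the treated arrays, a difference of 1.75 with SE 0.18 and no overlap. To miR-99b the ratio differed by 0.72 with SE 0.12, also with no overlap, and each of these had the smallest exact permutation p possible here, 0.0571 (adjusted over 3 ratios 0.0857). To miR-99a the difference was 0.38 with SE 0.26 and the groups overlapped (exact permutation p = 0.286).

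**Figure D4:**
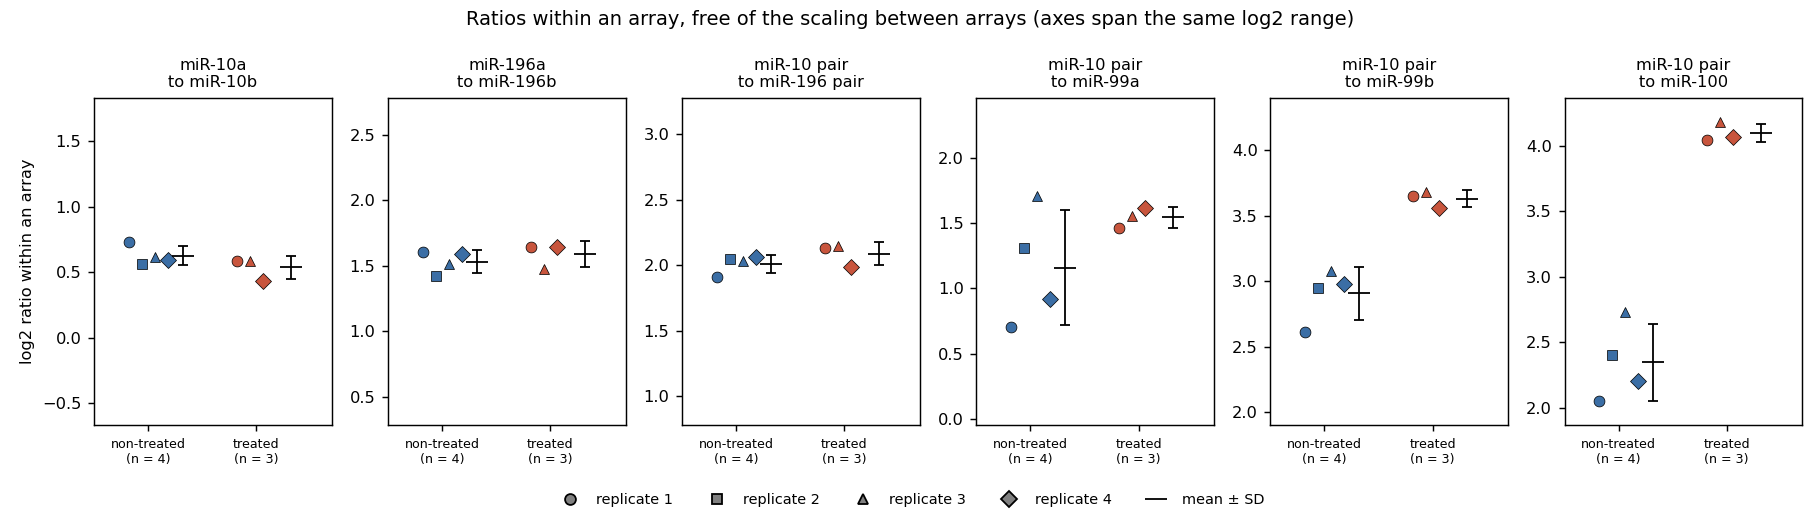
Log2 ratios within an array, by label, for the miR-10 and miR-196 pairs and for the miR-10 pair against miR-99a, miR-99b and miR-100. Each point is 1 array with its replicate number as shape, bars are mean ± SD of 4 non-treated and 3 treated arrays, and each vertical axis spans the same log2 range. The first 3 ratios overlap between labels, and the ratios to miR-99b and miR-100 do not.

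Each member was measured by several probes, printed on several spots each, and 10 probes in all read the 4 members. The coefficient of variation over spots of a probe on an array had a median of 15.6% and ran from 0.701% to 26.3%. The log2 change of single probes lay between -0.14 and 0.13, with 7 probes below 0 and 3 above. The 2 probes of miR-10a gave -0.14 and 0.030, and those of miR-10b gave -0.12 and 0.13, so in both pairs the probes differed in sign. The 4 probes of miR-196a gave -0.023, -0.095, -0.021 and 0.010, and those of miR-196b gave -0.031 and -0.095. No probe of a member had an exact permutation p under 0.171, whereas the probes of miR-99b and miR-100 all reached the smallest value possible, 0.0571.

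**Figure D5:**
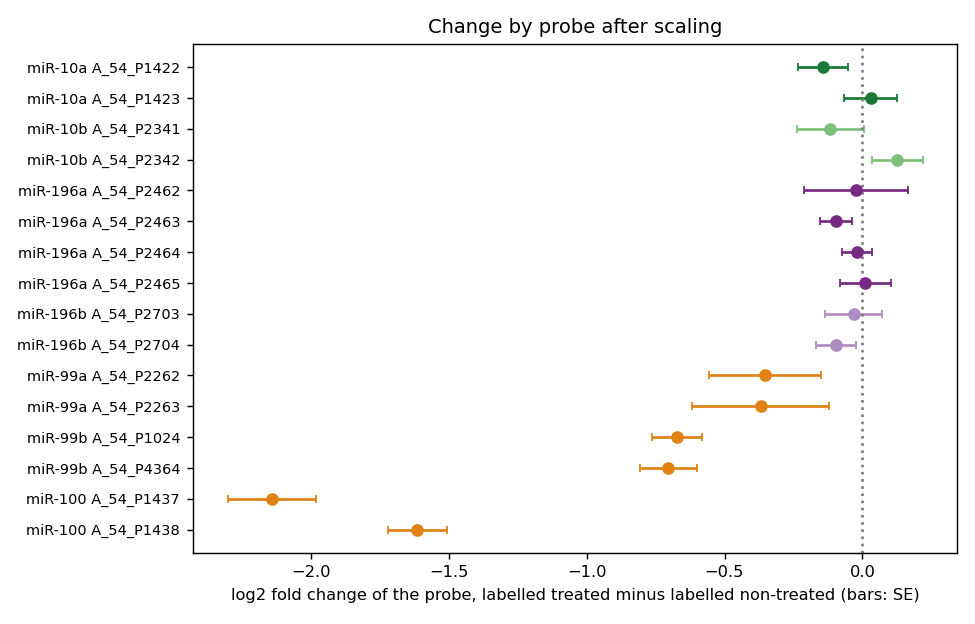
Log2 change of each probe after scaling, arrays labelled treated (n = 3) minus labelled non-treated (n = 4), with bars for the SE from the pooled SD. Probes of the Hox-cluster miRNAs are in green and purple and lie between -0.14 and 0.13, and probes of miR-99a, miR-99b and miR-100, in orange, all lie below 0.

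The opposite arms of the same hairpins were much dimmer. The hairpin of miR-10a, at chr11:96317165-96317274 on the plus strand of GRCm38.p6, is shown with both arms in capitals, miR-10a first and miR-10a* (miR-10a-3p) after it.
Mir10a: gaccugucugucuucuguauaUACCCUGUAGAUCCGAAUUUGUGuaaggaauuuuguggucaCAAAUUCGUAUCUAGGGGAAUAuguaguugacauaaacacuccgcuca

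miR-10a* was detected on 4 of 4 non-treated arrays and on 0 of 3 treated arrays. Its signal before scaling was 11.3, 14.9, 11.4 and 15.7 on the former, and 5.30, 7.54 and 4.90 on the latter, where it was not well above background. After scaling it was 2.85, 3.13, 3.61 and 3.32 against 3.11, 3.24 and 3.25 on the log2 scale, and the groups overlapped (limma adjusted p = 0.909). The lowest scaled log2 signal among detected miRNAs was 0.99 to 1.32 on the non-treated arrays and 2.42 to 2.75 on the treated arrays. Before scaling, the lowest was 1.945 to 3.93 and 3.455 to 4.27 intensity units. On the treated arrays miR-10a* was above these lowest values on both scales, yet it was not called detected there. The reason was not tested. No fold is given for miR-10a*.

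Of the other miRNAs from Hox loci, miR-615-3p, encoded within the span of Hoxc5, had the same pattern of detection, 4 of 4 and 0 of 3 arrays. Its scaled signal was at the floor of 6.71 (linear units, set by the least sensitive array) on all 7 arrays, and no fold is given. miR-10b*, miR-196a-2* and miR-615-5p were detected on no array. Of the miRNAs listed for these loci, only the 4 members were thus measured on both sides.

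Profiles over the 7 arrays were compared by the root mean square distance between scaled log2 signals, each centred on its own mean. The 3 nearest non-members of miR-10a were miR-361 (0.080), miR-130a (0.087) and miR-872 (0.091), where the median distance to 182 non-members was 0.34. Nearest to miR-10b were let-7f (0.064), miR-19b (0.069) and miR-186 (0.082). Nearest to miR-196a were let-7b (0.063), miR-1839-5p (0.066) and miR-200c (0.077), and nearest to miR-196b were miR-872 (0.073), miR-92a (0.076) and miR-20a (0.087). The distances among the members themselves ran from 0.074, between miR-10a and miR-196b, to 0.11, between miR-10b and miR-196a. For miR-10a, the members miR-196b (0.074) and miR-10b (0.080) were as near as or nearer than any non-member. For miR-10b, miR-196a and miR-196b it went the other way, as the nearest profile was that of a non-member. All points share the 7 arrays and their scaling.

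let-7b is among the miRNAs that carry the seed letters of miR-196 at bases 3 to 9, as its sequence shows with its own seed in capitals.
let-7b: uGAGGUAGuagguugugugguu

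It shares an unbroken run of 7 bases, AGGUAGU, with miR-196a, and its change was -0.046 (limma adjusted p = 0.371). Whether let-7 miRNAs contribute to the signal of the miR-196 probes was not tested.

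In the main scaling, markers of kidney tubule, white blood cells, red blood cells and mesenchymal cells differed strongly between the labels. The Hox-cluster miRNAs did not pass the test there, while 54.7% of all miRNAs tested did. Against spike-in controls or without scaling, all 4 members passed as lower on arrays labelled treated, beside 70.3% and 68.6% of all miRNAs tested. The marker values below are those of the main scaling. Of 4 kidney tubule markers, detected on all arrays, 3 were higher and 1 lower, and their summed scaled log2 signal was 10.66 to 10.94 on non-treated arrays and 12.43 to 12.46 on treated arrays. Of these, miR-192 was higher by 3.24 on the log2 scale (SE 0.23, limma adjusted p = 3.37e-05) on arrays labelled treated. The marker that was lower was miR-204, with a change of -0.56 (SE 0.076, limma adjusted p = 0.000669). All 4 white blood cell markers were lower on arrays labelled treated, with summed levels of 10.06 to 10.45 against 8.04 to 8.17. All 3 mesenchymal markers were lower there too, with 11.05 to 11.30 against 8.62 to 8.68. Both red blood cell markers were higher, with 10.08 to 11.19 against 12.17 to 12.32. These signs are by label. The study reports miR-192 as lower, and miR-214 and miR-223 as higher, in obstructed than in sham kidneys, which is opposite to the signs here. miR-122, which defines liver, was detected on no array. Of the 4 striated muscle markers, 1 (miR-1) was detected on all arrays and miR-206 on none, and their summed level was 4.12 to 5.79 against 4.10 to 4.21. The 2 that were tested did not pass, miR-1 with a change of -0.72 (limma adjusted p = 0.0751) and miR-133b with -0.81 (limma adjusted p = 0.0767). The part of cell makeup in the members' values was not tested.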

How the data were processed

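Kidney RNA was measured on 7 Agilent miRNA arrays (4 labelled non-treated, 3 treated). The authors deposited scanner files which, per the submitters' processing notes, were made with Agilent Feature Extraction 10.7.3.1. Their processed signal is a linear intensity per spot with the background taken off. The labels name the RecoverAll kit for extraction. The study's methods name the miRNeasy Mini kit for tissue, and RecoverAll for human kidney that was fixed in formalin and embedded in paraffin. Which kit these arrays' RNA came from is not settled here. A deposited table of values held, per probe, the intensity of the first spot for 6 arrays (taken as equal up to a relative difference of 1e-05) without log, centring or scaling, and for treated replicate 4 the error estimate instead. Arrays have no read depth, and their number limits the precision.

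Spots without outlier flags were averaged per probe and summed per miRNA, scaled, floored at 6.71 and taken as log2. No spot was saturated. miRNAs were tested if all arrays of 1 group or both detected them, with limma 3.58.1 in R 4.3.3 at a Benjamini-Hochberg adjusted p below 0.01. The steps were run on simulated data drawn around the scaled signals, with rises and falls in equal number. These data held no general difference in signal between groups, so they could not check the choice of reference. Ratios were compared by exact 2-sided permutation tests over arrays. No fold was given where a whole group lacked detection. Named are the 4 members, other miRNAs of Hox loci, the miR-99 and miR-100 relatives, the 3 nearest profiles per member, and marker lists. The members and lists were chosen with earlier results of these data known. 4 of 7 listed names of other Hox-locus miRNAs were on the array, and miR-196a-2* was added after its values were seen. Alternatives covered scaling, signal, background, probes, spots, filter, floor, test, a replicate block and leaving out single arrays. No array pair held identical values. Sequences and positions are from RefSeq tables of GRCm38.p6. Human, serum and PCR data were not analysed here.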

Additional observations from a re-analysis of the deposited data

Results flagged for a closer look

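Among the 4 non-treated arrays, replicate 3 stood apart from the other 3 in its mean log2 signal over miRNAs that all arrays detected (6.65) and in the mean log2 signal of the spike-in controls (10.20). In each case its gap to the nearest array, divided by the range of the group, exceeded 0.829. These were 2 of 9 sets of values looked at, and chance flags about 5% of them. The scaled signals of the 4 Hox-cluster miRNAs on that array were each the highest of the group without exceeding this limit. Without it, the log2 change of miR-10a was 0.0045, that of miR-10b 0.098, that of miR-196a -0.0085 and that of miR-196b -0.057.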

How the results depend on the processing

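The lack of a call in the main scaling held for all 4 members under every change of signal column, background, probe summary, spots, filter, floor and test that was run, and under every array left out. It did not hold against references that leave or restore the lower overall signal of arrays labelled treated. Without scaling the changes were -1.18 (miR-10a), -1.08 (miR-10b), -1.18 (miR-196a) and -1.23 (miR-196b), with spike-in controls -0.97, -0.88, -0.98 and -1.03, and with the mean of all miRNAs -0.53, -0.44, -0.53 and -0.59.

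Changes this close to 0 also turned sign. miR-10a was 0.23 with the 75th percentile over all miRNAs, 0.026 with Agilent's summed signal and 0.19 with the deposited table without treated replicate 4. miR-10b was -0.18 with the 75th percentile of detected miRNAs, -0.098 with the deposited table, -0.0066 with the mean of the probes, -0.0089 with normexp and -0.11 with quantile normalization. miR-196a was 0.22, 0.021, 0.0063 and 0.011, and miR-196b 0.17 (75th percentile of all), 0.044 (deposited table without treated replicate 4), 0.0016 (normexp) and 0.0071 (quantile), where the values of miR-196a follow the 75th percentile of all, Agilent's sum, the table without treated replicate 4 and normexp. The cause was not tested.

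The ratio of miR-10a to miR-10b turned to 0.074 and that of miR-196a to miR-196b to -0.038 with the table without treated replicate 4, and the ratio of the pairs to -0.069 with normexp. The count of 129 miRNAs past the threshold became 56 with the deposited table, which holds first-spot values and, for treated replicate 4, error estimates. Without that array the count was 93 with the table and 112 with the main signal. The methods' t-test, run on the main scaling, gave 118 after Benjamini-Hochberg adjustment and 131 at 1 in 100 without it. No member was among either. It was not run with the mean of all miRNAs as the reference. The study's methods give the threshold of 1 in 100 without naming an adjustment, and a figure legend of the study calls it Bonferroni adjusted.

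Leaving out each array in turn gave -0.068 to 0.072 for miR-10a (above 0 without non-treated replicate 3 or treated replicate 4), 0.014 to 0.11 for miR-10b, -0.055 to -0.0028 for miR-196a and -0.11 to -0.045 for miR-196b. The ratios ran from -0.12 to -0.040, from 0.016 to 0.11 and from 0.043 to 0.13, and the count from 112 to 140.

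The replicate numbers gave no clear sign of pairing (correlations of deviations -0.055, -0.034 and 0.18, with only replicate 4 correlating best with its own number). These values cannot show whether arrays were paired by design, which the labels do not state. With the replicate block the members' changes were -0.030, 0.081, -0.055 and -0.070, no member passed, the ratios were -0.11, 0.016 and 0.088, and 94 miRNAs passed. Signal over background limits the weakest values, miR-10a* and miR-615-3p.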

Other observations

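In the deposited table of values the column medians over 1981 probes were 0.45, 0.53, 0.47 and 0.35 intensity units for non-treated replicates 1 to 4, 0.32 and 0.28 for treated replicates 1 and 3, and 1.001 for treated replicate 4. The scale and lack of centring follow from the match to the scanner values, and the column of treated replicate 4 carries no signal of its array. The direction between obstructed and sham kidneys is not settled by this table.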
